A study of Homo sapiens with 12 samples.

Results

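The transcripts described here are the protein-coding genes of HEK293T cells in which the response to bafilomycin A1 (BafA1) could be compared with and without added iron. BafA1 blocks the V-ATPase, the proton pump that acidifies lysosomes. A gene was included when its mean was at least 1 FPKM (fragments mapped to a gene, scaled for transcript length and library depth) in the 6 libraries given iron as ferric ammonium citrate (FAC), and also in the 6 without. This left 11377 of 19550 protein-coding genes, out of 56337 gene identifiers. HEK293T cells, an established line from human embryonic kidney that expresses SV40 large T antigen, were labelled as wild type and grown in RPMI with serum. There were 4 groups of 3 libraries. Control cells received neither agent, the BafA1 group received 10 nM BafA1 for 24 h, the FAC group was kept beforehand for 24 h with 0.1 mg/ml FAC, and the FAC+BafA1 group received FAC and then BafA1. No group received ammonium citrate without iron, so effects of iron and of its salt cannot be told apart. The labels number the libraries within a group without saying whether each came from its own culture, so the spread behind each p-value is that of these libraries and may be technical.

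Cells take up most of their iron as transferrin, which releases the metal in acidified endosomes before it is exported to the cytosol. Loss of acidity therefore deprives the cytosol of iron as well as stopping lysosomal breakdown. FAC gives iron in a form that cells can also take up without transferrin. Cytosolic iron is sensed by the iron regulatory proteins, which stabilise the TFRC transcript when iron is low, and is a cofactor of the 2-oxoglutarate oxygenases that mark hypoxia-inducible factors (HIF) for breakdown. The design asks which part of the transcript response to lost acidity persists when iron is supplied.

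The 12 libraries were alike in estimated depth (34.4 to 37.85 M fragments, a rough estimate from the steps between low values) and in the number of genes at 1 FPKM or more (13244 to 13597). In that estimate, values within 0.2 of a whole fragment were 52.4% to 55.0% without FAC and 63.4% to 67.1% with FAC. Whether this difference between the FAC sides touches levels set across them was not tested, and the BafA1 responses are each measured within 1 side. The summed FPKM was 600260.65 to 604482.73 in the BafA1 libraries and at least 634934.62 in the other 9. Mitochondrially encoded genes held 2.457% to 3.094% of it in BafA1 and 1.48% to 2.273% elsewhere. The results under an equal FPKM sum are given with the counts they alter, and the part of the mitochondrial share was not tested. The libraries with and without FAC were filled differently for 627 gene entries, at 0 in one set of 6 libraries and reaching 1 FPKM in each of the other 6. None of the 11377 members was among them (0 of 627), and 347 protein-coding genes reached the minimum on 1 side only and were left out. Just inside the minimum stood MMP11 (1 FPKM without FAC, 1.363 with) and PARD3B (1.372 and 1.002), and just outside stood JADE2 (0.997 and 1.11) and CNTF (1.078 and 0.997). Of 6 markers of HEK293 cells, 5 had a mean of at least 1 FPKM and PAX2 did not (0.641). Defining markers of keratinocytes (0 of 4) and hepatocytes (0 of 3) did not reach it, nor did 4 of 5 blood and 3 of 4 fibroblast markers. COL1A1 of the fibroblast list did, at 4.838. In 8275 members the annotated gene overlaps another gene, and whether counting used the strand is not given in the sources used here, so their levels may hold reads of a neighbour.

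The response to BafA1 was measured in each setting within libraries alike in FAC, as a difference of log2(FPKM + 1), on which low genes change by less than their true ratio. The 2 responses share no library. Genes with a limma adjusted p under 0.05 (Benjamini-Hochberg over 13682 genes tested) were called, and the difference of the 2 responses, with FAC minus without, was tested as the interaction. Without FAC, BafA1 changed 8223 of 11377 members, 3625 higher and 4598 lower, beside 67.1% of all genes tested (29.5% higher, 37.6% lower). With FAC it changed 2457, 1249 higher and 1208 lower, beside 19.3% of all genes (9.76% higher, 9.49% lower). The interaction was called in 6192 members, 3671 positive and 2521 negative, beside 50.1% of all genes (29.5% positive, 20.6% negative). The excess of positive calls depended on the scaling of libraries: 59.3% were positive as deposited, against 48.8% with median-of-ratios scaling, 49.1% when each library was rescaled to an equal FPKM sum and 53.7% with quantile normalization. The share of higher calls with FAC was 50.8% as deposited and 61.8% after rescaling to an equal FPKM sum. By size, 561 members changed by at least 1 log2 unit without FAC (323 higher, 238 lower) and 43 with FAC (40 higher, 3 lower).

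The calls sort each response into classes, which describe the tests and were not tested again. A response was cancelled when it was called without FAC, the interaction was called against it and the response with FAC was not called. It was reduced when a call in the same direction remained with FAC, reversed when the call with FAC was in the opposite direction, kept when both responses were called in 1 direction and the interaction was not, and enlarged when the interaction went with it. Of the 11377 members, 4374 were cancelled (38.4%), 1282 reduced (11.3%), 635 kept (5.58%), 188 reversed (1.65%) and 23 enlarged (0.202%). A further 181 were called only with FAC, with a called interaction (1.59%), while 1721 of those called without FAC could not be placed. The cancelled class rests on a missing call with FAC, which does not show that no response remained. How far the intervals limit what remained is given below. The majority of lower genes among the cancelled (1783 higher, 2591 lower) disappeared with median-of-ratios scaling (2303 and 2119). It also did so among the reduced (548 and 734) after rescaling to an equal FPKM sum (695 and 492), and among the reversed (66 and 122) with median-of-ratios scaling (92 and 85). With quantile normalization it remained among the cancelled (2042 and 2335), the reduced (525 and 610) and the reversed (69 and 110). It also remained among the reduced with median-of-ratios scaling (588 and 608), and among the reversed after rescaling to an equal FPKM sum (66 and 101).

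**Figure D1:**
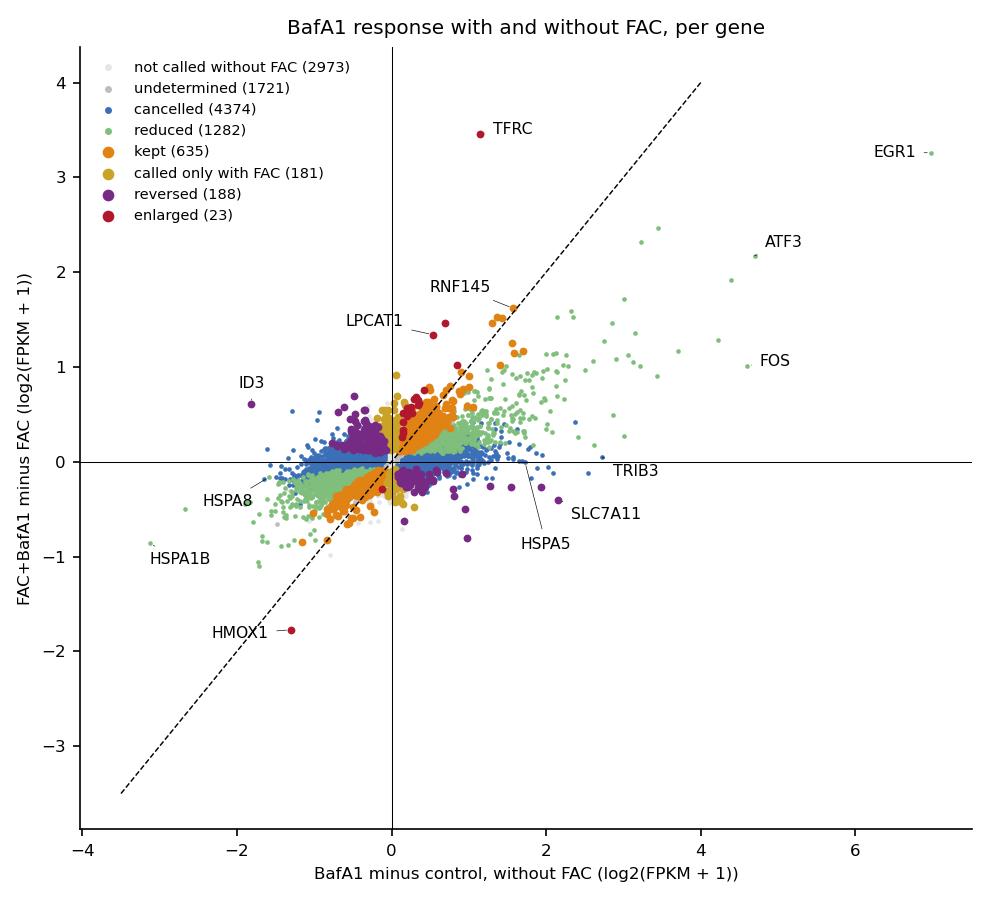
Each point is 1 of the 11377 members, with its BafA1 response without FAC on the horizontal axis and with FAC on the vertical axis, both in log2(FPKM + 1). Colours give the response classes with their counts, and the dashed line marks equal responses. Most points lie along the horizontal axis, EGR1 and ATF3 lie above it but below the line, RNF145 lies on the line and TFRC above it.

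Among the 561 large responses, 217 were cancelled, 324 reduced, 12 kept, 5 reversed and 2 enlarged, and LY6G6D could not be placed. These counts moved with the settings: 425 were cancelled and 29 kept with a pseudocount of 0.1, 140 cancelled at a mean of 5 FPKM or more, and 10 reversed with quantile normalization. The median ratio of the response with FAC to that without was 0.23. Of all 4374 cancelled, 2525 had a 95% interval of the response with FAC within 50% of the size of the response without. The interval lay within 25% in 501 of them. Of the 217 large cancelled ones, 205 had it within 50% and 106 within 25%. The levels with FAC stood near the control and not between control and BafA1: the mean of FAC and FAC+BafA1 lay a median of 0.06 of the way from control to BafA1, and within 0.25 of the control in 191 of 217. Of 47 increases over 2 log2 units, 10.6% were cancelled and 87.2% reduced, against 37.7% and 57.2% of 276 of 1 to 2 units. These shares are conditioned on the 1 FPKM minimum with FAC. EGR1 (0.54 FPKM in FAC) and FOS (0.46) entered only through what remained of their rise, and a cancelled one would have been left out. An equal remaining share is also called more easily where the response is larger. Since choosing genes by their response without FAC favours smaller values with FAC, the opposite choice was also made. Of the 43 members that changed by at least 1 log2 unit with FAC, 30 had a called interaction towards a larger change without it and 5 towards a smaller one. The other 8 had no called interaction, which does not show equal responses: CGA (1.70 without and 1.17 with FAC), ISG15 (1.58 and 1.15), EMP3 (1.40 and 1.02) and TFPI (1.56 and 1.25) were among them.

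Genes of the endoplasmic reticulum (ER) unfolded protein response, which raise folding and disposal capacity when misfolded proteins collect in the ER, were among those whose increase was lost. Of 25 listed genes, 21 rose without FAC (median 0.94) and 9 with FAC (median 0.03), 11 were cancelled and 9 reduced, and the interaction was negative in 23 and positive in 0. HSPA5 (BiP, the main ER chaperone, chromosome 9, GRCh38) stood at 186, 183 and 179.9 FPKM in control and at 611, 629.9 and 579 in BafA1. It stood at 184, 183 and 188 in FAC and at 182, 186 and 187 in FAC+BafA1. The BafA1 libraries without FAC were thus more than 3 times as high as all others, and the FAC and FAC+BafA1 libraries overlapped. The response was 1.73 ± 0.03 log2 units without FAC (SE, adjusted p = 1.86e-12) and 0.00 ± 0.03 with FAC (95% interval -0.07 to 0.07, adjusted p = 1), and the interaction was -1.72 ± 0.04 (adjusted p = 1.93e-10).

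XBP1, a transcription factor of the same response, rose from 87.3 ± 0.520 to 292 ± 3.73 FPKM without FAC (SD, n = 3) and from 88.6 ± 0.779 to 106 ± 2.24 with FAC, and so was reduced and not cancelled (interaction -1.47, limma adjusted p = 1.62e-10). HERPUD1, which helps to remove ER proteins, rose from 39.1 ± 1.81 to 245 ± 13.5 FPKM without FAC. With FAC it stood at 42.4 ± 0.257 and 48.1 ± 2.80, a rise (adjusted p = 0.028) whose call was lost in 7 of 21 alternatives, among them leaving out any 1 of the 3 FAC libraries. The cochaperone DNAJB9 retained 0.49 of its 2.86 log2 units, and the sensors ERN1 (0.90 and 0.01) and ATF6 (0.69 and 0.08) were cancelled. CALR and CRELD2, a calcium-binding chaperone and a secreted ER factor, went another way as deposited. They were lower by about the same amount in both settings, CALR at -0.10 and -0.10, CRELD2 at -0.21 and -0.27. These falls without FAC depended on scaling. The list held 2 such calls as deposited, 1 with median-of-ratios scaling, 1 with quantile normalization and 0 after rescaling to an equal FPKM sum.

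The promoters of HSPA5 and XBP1 are shown because both carry the ER stress response element (ERSE, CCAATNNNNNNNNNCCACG, searched on both strands of the 250 bases before the annotated start), the binding site of ATF6 with NF-Y. The sequences are from RefSeq on GRCh38.p14, 5′ to 3′ on the strand of the gene, with the element in capitals. HSPA5 spans chr9:125241366-125241434 on the minus strand and XBP1 chr22:28800578-28800646 on the minus strand.
HSPA5: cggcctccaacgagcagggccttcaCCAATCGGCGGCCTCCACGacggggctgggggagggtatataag
XBP1: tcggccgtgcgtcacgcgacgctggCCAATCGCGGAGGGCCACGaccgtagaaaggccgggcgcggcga
Of 27305 promoters 0.081% held the element. Promoters were matched for 9397 of 11377 members, and 14 of these held it (0.149%). It was in 4 of 87 promoters of cancelled genes that had risen by at least 1 log2 unit (4.6%), namely HSPA5, FICD, SERP1 and TRIM5, of which the last 3 are named after their values were seen. Of the 14, as deposited, 9 rose without FAC and 3 fell, 6 were cancelled and 4 reduced, and CALR and CRELD2 were among the rest. A match describes these letters in this window and is no proof of binding.

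The ATF4 amino acid response, which raises amino acid supply and redox defence when the factor ATF4 is translated under stress, included genes of every class but the enlarged. Without FAC, 33 of 37 listed genes rose and 1 fell (median 1.25). With FAC, 10 rose and 9 fell (median -0.06), and the interaction was negative in 34 and positive in 0. Of the 37, 16 were cancelled, 10 reduced, 6 reversed and 1 kept. TRIB3, a pseudokinase that ATF4 induces, stood at 9.22, 8.82 and 7.57 FPKM in control and 62.8, 65.2 and 57.6 in BafA1, then at 9.65, 8.93 and 9.16 in FAC and 9.75, 9.51 and 9.52 in FAC+BafA1. The rise without FAC was 2.72 ± 0.07 log2 units and the change with FAC 0.05 ± 0.07 (95% interval -0.10 to 0.19, limma adjusted p = 0.674). CHAC1, which degrades glutathione, stood at 21.5 ± 2.74 FPKM in BafA1 and at 2.86 ± 0.403 in control. With FAC it stood at 3.58 ± 0.211 before and 3.22 ± 0.188 after BafA1. SESN2, a leucine-sensing stress protein, was also cancelled (2.08 and -0.12 log2 units), a response called reversed with quantile normalization or without FAC replicate 3. ATF4 itself stood at 0.88 and 0.08 log2 units.

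Some genes of this list turned round. ASNS, which makes asparagine, stood at 151, 142 and 139 FPKM in control, 426, 425 and 418 in BafA1, 153, 151 and 155 in FAC and 129, 128 and 123 in FAC+BafA1. The FAC+BafA1 libraries were the lowest and did not overlap those of FAC. SLC7A11, the cystine importer, rose 4.95-fold without FAC, from 7.09 ± 0.242 to 35.1 ± 0.686 FPKM, and fell with FAC from 8.83 ± 0.618 to 6.41 ± 0.190 (interaction -2.56 ± 0.07, limma adjusted p = 5.64e-10). DDIT4, an inhibitor of mTORC1, rose by 0.98 without FAC and was -0.80 with FAC, from 35.86 FPKM in FAC to 20.12 in FAC+BafA1. The glycine transporter SLC6A9 was reversed as well, but its fall with FAC (-0.27 ± 0.08, adjusted p = 0.035) was lost in 9 of 21 alternatives, among them leaving out any 1 of the 6 libraries with FAC. PHGDH, the first enzyme of serine synthesis, did not pass without FAC as deposited (0.05) and fell with it (-0.40). Under each of the other scalings 34 genes of the list rose without FAC, against 33 as deposited.

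Other members of the list held on to part of the rise. ATF3, a stress-induced factor, reached 539 ± 22.2 FPKM in BafA1 from 19.8 ± 1.52 and 122 ± 3.43 in FAC+BafA1 from 26.3 ± 0.509. DDIT3 (CHOP) retained 0.91 of 3.43 log2 units and PPP1R15A (GADD34) 1.05 of 3.12, whereas CTH, which makes cysteine, retained 0.27 of 3.01. The cytosolic aminoacyl-tRNA synthetases, which charge tRNAs with amino acids, followed the ATF4 list in direction. Of 20, 14 rose and 4 fell without FAC (median 0.48), and 0 rose and 9 fell with FAC (median -0.09). The 9 lower calls were 5 with quantile normalization and 6 after rescaling to an equal FPKM sum. SARS1 rose 2.08-fold without FAC and stood at 136 ± 4.0 and 141 ± 0.342 FPKM with FAC. IARS1 stood at 196 ± 1.21, 292 ± 2.65, 201 ± 4.86 and 189 ± 2.10 FPKM in the order control, BafA1, FAC and FAC+BafA1, and its fall with FAC (adjusted p = 0.024) was lost in 7 of 21 alternatives.

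The C/EBP-ATF response element (CARE, TTGCATCA, both strands), through which ATF4 acts, lay upstream of named genes from 3 classes, and 1 gene of each class that rose is shown. They are CHAC1 (cancelled, chr15:40953232-40953299, plus strand), HERPUD1 (reduced, chr16:56931936-56932003, plus strand) and IARS1 (reversed, chr9:92293698-92293740, minus strand), from RefSeq on GRCh38.p14, with the element in capitals.
CHAC1: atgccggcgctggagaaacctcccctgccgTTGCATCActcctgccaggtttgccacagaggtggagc
HERPUD1: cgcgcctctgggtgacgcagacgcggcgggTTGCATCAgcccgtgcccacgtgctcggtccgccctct
IARS1: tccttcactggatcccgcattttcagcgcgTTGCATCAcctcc
The element was in 0.82% of all promoters and 0.372% of those of members. It was in 1 of 87 promoters of cancelled and 1 of 158 of reduced genes that had risen by at least 1 log2 unit, and in 0 of 91 and 1 of 105 of those that had fallen. The last is NTHL1, which fell (-1.15) and was reduced.

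**Figure D2:**
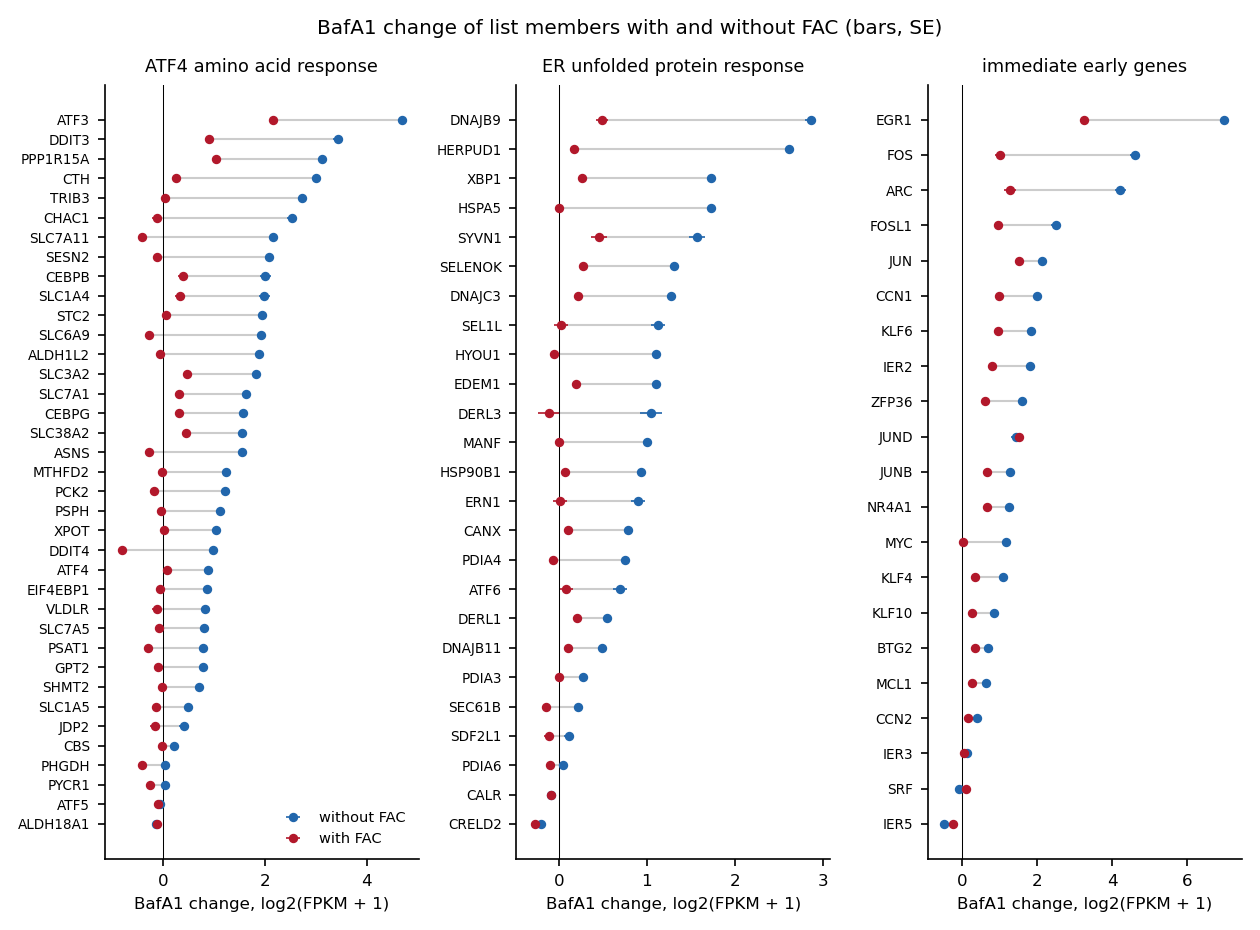
Each row is 1 gene of the ATF4, ER unfolded protein response or immediate early list, with its BafA1 response in log2(FPKM + 1) without FAC (blue) and with FAC (red). Bars are limma standard errors from 3 libraries a group. In the ER list the red points lie near 0 for HSPA5 and its neighbours, in the ATF4 list several, SLC7A11 and DDIT4 among them, lie below 0, and in the immediate early list most lie between 0 and the blue points.

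The immediate early genes, transcription factors and regulators that signalling switches on without new protein synthesis, were counted only where the 1 FPKM minimum was reached with FAC too. Of 21 such genes, 18 rose without FAC (median 1.28) and 16 with FAC (median 0.67), 16 were reduced and 1 was cancelled. EGR1, FOS, ARC, FOSL1 and ZFP36 had means under 1 FPKM in control and in FAC and entered only through their level after BafA1, so a cancelled rise would have kept them out, as it may have for the 4 listed genes that are not members. In the 16 with a starting level of at least 1 FPKM, a restriction chosen after the values were seen, 13 rose without FAC (median 1.13) and 11 with FAC (median 0.35). EGR1, the largest response, stood at 0.49, 0.50 and 0.47 FPKM in control, 203, 197 and 164 in BafA1, 0.61, 0.58 and 0.42 in FAC and 15.1, 14.6 and 11.6 in FAC+BafA1. Every FAC+BafA1 library lay above every FAC library and far below every BafA1 library. The responses were 6.98 ± 0.10 and 3.26 ± 0.10 log2 units (interaction -3.73 ± 0.14, limma adjusted p = 4.43e-09). FOS, a subunit of the factor AP-1, reached 30.8 ± 2.86 FPKM in BafA1 and 1.92 ± 0.239 in FAC+BafA1 from 0.307 ± 0.0473 and 0.460 ± 0.278, which are levels too low for exact folds. ARC, a synaptic immediate early gene, retained 1.28 of 4.23 log2 units and JUN, another AP-1 subunit, 1.52 of 2.14. MYC was the cancelled one, at 117 ± 7.75 FPKM in BafA1 and 51.9 ± 1.07, 52.9 ± 2.10 and 54.1 ± 0.755 in control, FAC and FAC+BafA1.

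JUND alone in the list was kept. It stood at 9.16, 7.89 and 7.68 FPKM in control, 22.3, 20.7 and 29.3 in BafA1, 8.83, 8.21 and 8.37 in FAC and 28.8, 26.3 and 23.7 in FAC+BafA1. The BafA1 libraries with and without FAC overlapped, and the interaction was 0.09 ± 0.16 (95% interval -0.25 to 0.44, limma adjusted p = 0.659). Of the feedback regulators of the MAP kinases, 11 of 11 rose without FAC (median 1.45) and 10 with FAC (median 0.88), and 9 were reduced. These counts carry the same condition, since 7 of the 18 listed genes were not members and ETV5 (0.293 FPKM in control, 0.207 in FAC) entered only through its level after BafA1. DUSP1, which inactivates the kinases, rose from 9.51 ± 0.457 to 69.6 ± 2.43 FPKM without FAC and from 8.75 ± 0.616 to 22.5 ± 0.892 with FAC. The 4 immediate early genes that did not reach the minimum were EGR2, EGR3, FOSB and KLF2.

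The EGR1 promoter (chr5:138465359-138465420, plus strand, RefSeq on GRCh38.p14) is shown for the largest partial loss. It holds 2 CArG boxes, the binding sites of serum response factor, in capitals.
EGR1: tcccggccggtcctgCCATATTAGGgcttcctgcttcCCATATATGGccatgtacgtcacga
The box was in 1.14% of all promoters, 0.979% of those of members, 3 of 158 of reduced genes that had risen by at least 1 log2 unit and 2 of 105 of those that had fallen. The cyclic AMP response element (CRE, TGACGTCA, both strands), a site for CREB and AP-1 family factors, was in 12 of these 158 promoters (7.6%) and in 0 of 87 of the cancelled ones, beside 3.14% of members and 1.77% of all promoters. Among genes that had fallen it was in 2 of 105 reduced and 1 of 91 cancelled. JUND, which was kept, also has it. The reduced and cancelled sets of risen genes were not filtered alike. Reduced genes such as EGR1 met the 1 FPKM minimum with FAC only through what remained of their rise, and cancelled ones would have been left out. How far this sets the CRE shares apart was not tested.

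The chaperones listed as cytosolic, which fold new and heat-damaged proteins, fell less with FAC. The list also holds the mitochondrial cochaperonin HSPE1. Of 20, 16 fell without FAC (median -0.63) and 13 with FAC (median -0.16), 12 were reduced and 5 cancelled. HSPA1B, an inducible HSP70, stood at 504, 576 and 579 FPKM in control, 63.7, 63.0 and 59.9 in BafA1, 658, 700.1 and 625 in FAC and 346, 356 and 387 in FAC+BafA1. The response was -3.13 ± 0.06 without and -0.86 ± 0.06 with FAC (interaction 2.27 ± 0.08, limma adjusted p = 3.84e-09). HSPA1A is nearly identical, so the split of reads between these neighbours is uncertain. HSPA8, the constitutive HSP70, fell from 1190.1 ± 5.29 to 396 ± 5.29 FPKM without FAC and from 1190.4 ± 33.2 to 1062 ± 13.4 with FAC. The small chaperone HSPB1 was cancelled (-1.25 and -0.15), while HSPE1 was reduced (-1.25 and -0.20).

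Genes of the respiratory chain split by where they are encoded. The nuclear-encoded subunits of the respiratory chain fell in 37 of 40 without FAC (median -0.48) and in 18 with FAC (median -0.11), with 18 cancelled, 15 reduced and 3 kept. The 18 lower calls with FAC were 9 with quantile normalization. ATP5MC1, a ring subunit of ATP synthase, stood at 253 ± 11.9, 92.0 ± 1.21, 251.2 ± 8.93 and 217 ± 11.5 FPKM in the order control, BafA1, FAC and FAC+BafA1. NDUFA1, of complex I, was cancelled (-0.66 and -0.05). The mitochondrially encoded genes went the other way: 8 of 13 rose without FAC (median 0.40; 11 to 13 of 13 under the other scalings) and 0 with FAC (median 0.22), but the interaction was called in 2 of 13, MT-ND3 and MT-CO2 (negative in both). The MT-CO2 call (-0.50, limma adjusted p = 0.046) was lost in 13 of 23 alternatives. Proteins of the mitochondrial ribosome, which are nuclear-encoded, fell in 24 of 30 and rose in 2 without FAC. With FAC 17 fell (10 reduced, 7 cancelled, 4 kept), MRPL23 being cancelled (-0.94 and -0.08).

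Factors that build iron-sulfur clusters and heme fell in 24 of 37 genes without FAC (median -0.28) and in 8 with FAC (median -0.07), and 54.1% had a called interaction against 54.4% of all members. NFS1, the cysteine desulfurase that supplies the sulfur, was cancelled, at 26.6 ± 1.28 and 14.1 ± 0.597 FPKM without FAC and 26.0 ± 0.910 and 23.7 ± 0.635 with FAC. ALAS1, the first enzyme of heme synthesis, rose, and retained 0.30 of 0.96 log2 units. HSPA9, the chaperone of cluster assembly, was reversed (0.30 and -0.19). Of 16 enzymes outside mitochondria that carry clusters, 8 rose and 2 fell without FAC. The DNA glycosylase NTHL1 was the largest of these, reduced from -1.15 to -0.26. In the TCA cycle 16 of 22 genes fell without and 11 with FAC, with 12 positive interactions as deposited and 7 with median-of-ratios scaling. OGDH, of the 2-oxoglutarate dehydrogenase, stood at -0.95 and -0.34.

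Targets of HIF, which accumulates when its iron-dependent hydroxylases are idle, had a called interaction in 50% of 34 (17 genes), near the 54.4% of all members. Without FAC 25 rose and 5 fell (median 0.41), with FAC 19 rose and 2 fell (median 0.18), and 10 were reduced, 9 kept and 7 cancelled. NDRG1, which iron chelators induce, rose from 18.9 ± 1.29 to 76.5 ± 5.95 FPKM without FAC and from 16.5 ± 1.28 to 32.8 ± 1.49 with FAC. VEGFA, an angiogenic factor, rose from 12.4 ± 0.355 to 42.8 ± 2.85 without FAC. With FAC it stood at 13.4 ± 1.75 and 17.0 ± 1.75 (limma adjusted p = 0.0249), a call lost in 5 of 21 alternatives, among them without FAC replicate 3 and without FAC+BafA1 replicate 1 or 2. The glucose transporter SLC2A1 retained 0.41 of 1.37 and the hexokinase HK2 0.33 of 1.72 log2 units. The kept ones included LDHA (0.13 and 0.16), ADM (0.38 and 0.30) and SLC2A3 (0.74 and 0.47). Of 35 iron-dependent oxygenases, 22 rose and 8 fell without FAC and 8 rose and 1 fell with it, and 19 were cancelled, KDM6A (0.92 and 0.14) and KDM4A (0.69 and -0.04), both histone demethylases, among them.

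Lysosomal hydrolases and membrane proteins mostly lost a fall: 4 rose and 23 fell of 37 without FAC (median -0.23), 9 rose and 0 fell with FAC (median 0.06), and the interaction was positive in 26 and negative in 0 (2 with other scalings of the libraries). Of the 37, 19 were cancelled, 0 reduced and 3 reversed, and 28 were not called with FAC. PPT1, a thioesterase, stood at 107 ± 1.5 and 54.4 ± 2.64 FPKM without FAC and at 109 ± 3.05 and 106 ± 0.0794 with FAC. CD63, a membrane tetraspanin, was reversed, falling from 178 ± 4.56 to 128 ± 2.21 FPKM without FAC and rising from 201 ± 1.43 to 232 ± 7.27 with FAC. MCOLN1, the lysosomal calcium and iron channel, was called only with FAC (0.02 and 0.42). In the V-ATPase itself, the target of BafA1, 4 rose and 11 fell of 19 subunit genes without FAC and 5 rose and 0 fell with it. Its members ATP6V0C (-0.35 and 0.43), ATP6V0B (-0.28 and 0.21) and ATP6AP1 (-0.29 and 0.14) were reversed, and ATP6V0E1 was cancelled (-0.56 and 0.00). In autophagy, 17 rose and 4 fell of 34 without FAC and 9 rose with it, and SQSTM1, the receptor p62, retained 0.50 of 0.64 log2 units.

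Sterol genes fell in 17 of 26 without FAC and rose in 3 (median -0.34), and with FAC 6 fell and 4 rose (median 0.01). Of these, 10 were cancelled and 6 reduced. SQLE, which oxidises squalene, stood at -0.92 and -0.27 log2 units. HMGCS1 was not called in either setting as deposited (0.05 and 0.08). It was called without FAC with median-of-ratios scaling, and in both settings, as kept, after rescaling to an equal FPKM sum. Among fatty acid genes, SCD, a desaturase, was reduced (-1.03 and -0.37) and ELOVL6, an elongase, reversed (-0.61 and 0.17), the last call being lost in 3 of 21 alternatives (without FAC replicate 1, without FAC+BafA1 replicate 1 and at an adjusted p under 0.01).

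Iron handling held 3 of the 23 enlarged responses. TFRC, the transferrin receptor (chromosome 3, GRCh38), stood at 58.6, 57.2 and 59.1 FPKM in control, 131, 133 and 127 in BafA1, 9.39, 9.63 and 11.7 in FAC and 124, 119 and 124 in FAC+BafA1. FAC lowered the starting level, and the BafA1 libraries with FAC came close to those without. The response was 1.15 ± 0.06 without and 3.46 ± 0.06 log2 units with FAC (interaction 2.32 ± 0.09, limma adjusted p = 4.02e-09), on the linear scale 2.23-fold and 11.9-fold. SLC11A2, the divalent metal transporter, stood at 0.22 and 0.52. HMOX1, which breaks down heme, fell in both settings, from 21.2 ± 1.42 to 7.97 ± 0.140 FPKM and from a FAC level of 40.3 ± 3.81 to 11.1 ± 0.723 (interaction -0.47, adjusted p = 0.0021). NCOA4, the receptor that delivers ferritin to lysosomes, was reversed: 58.8 ± 0.814 and 86.0 ± 0.748 FPKM without FAC, 70.4 ± 1.25 and 61.0 ± 0.942 with FAC.

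The ferritin subunits parted. FTL, the light chain, was kept (0.25 ± 0.04 and 0.21 ± 0.04 log2 units), a call that became reduced with quantile normalization. FTH1, the heavy chain, was -0.14 ± 0.04 without FAC and rose by 0.25 ± 0.04 with FAC (interaction 0.38 ± 0.05, limma adjusted p = 7.85e-05), but its fall without FAC was lost under each of the 3 other scalings. Ferritin genes have pseudogenes, so their reads may be shared. STEAP3, an endosomal iron reductase, was cancelled (-0.73 and 0.09). Of the 22 iron genes, 10 were cancelled, 0 reduced, 3 enlarged, 2 reversed and 2 kept. Among NRF2 targets of redox defence, 14 of 21 fell and 5 rose without FAC. PRDX1, a peroxiredoxin, was reduced (-1.19 and -0.22) and TXN, thioredoxin, cancelled (-0.60 and -0.07). The glutathione peroxidase GPX4 of the ferroptosis list was cancelled too (-0.69 and -0.12), and SLC7A11 and SLC3A2, the subunits of the cystine importer, were reversed and reduced.

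**Figure D3:**
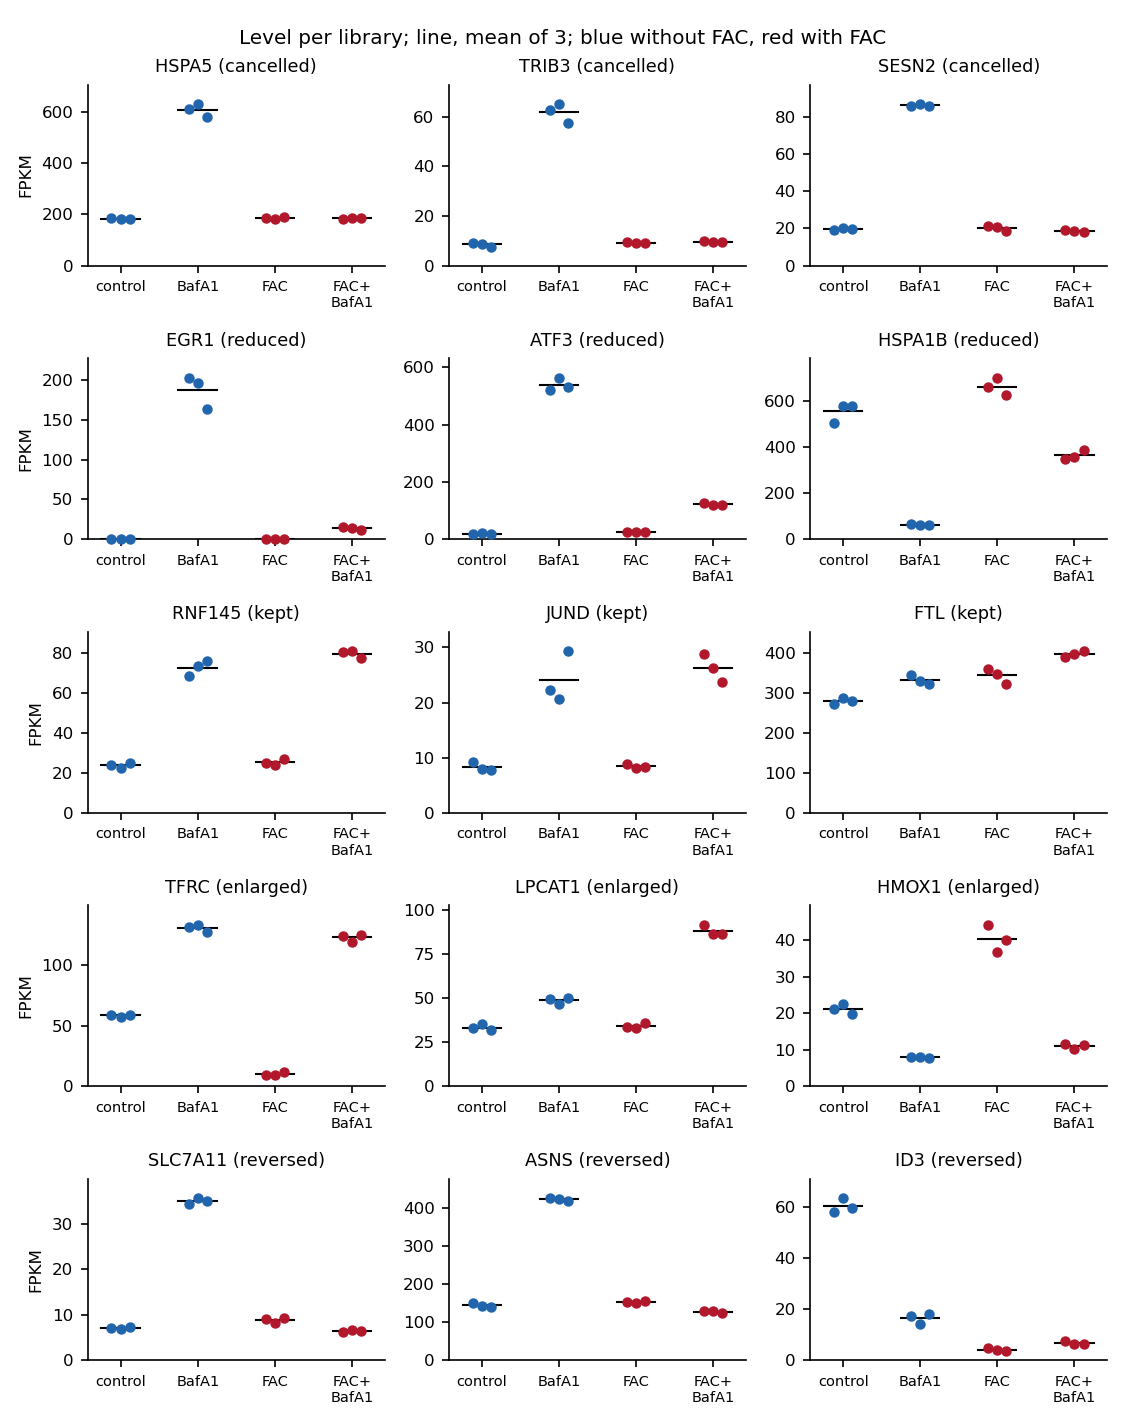
FPKM of 15 genes in each of the 12 libraries, with a line at the mean of 3, libraries without FAC in blue and with FAC in red, each panel on a linear axis from 0. In the top row (HSPA5, TRIB3, SESN2) only BafA1 without FAC is high, in the second row FAC+BafA1 differs from FAC but less than BafA1 from control, and in the fourth row TFRC starts low in FAC and ends near its level in BafA1.

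Other enlarged responses did not start from a changed level in every case. LPCAT1, which makes phosphatidylcholine, stood at 33.4 ± 1.71 and 48.8 ± 1.81 FPKM without FAC and at 34.3 ± 1.54 and 88.4 ± 2.96 with FAC, where FAC and control libraries overlapped (interaction 0.80 ± 0.07, limma adjusted p = 1.63e-06). EMILIN2, a matrix glycoprotein, rose by 0.70 and 1.47 log2 units from 5.15 ± 0.164 FPKM in control and 1.10 ± 0.128 in FAC. Its interaction is positive on the log scale (0.77) and slightly negative in FPKM (-0.13), the only such named gene. LAMA3 (0.29 and 0.66) lost its interaction call in 15 of the 21 alternatives that tested it. B4GALT5, a galactosyltransferase named after its values were seen, was the other that reached 1 log2 unit with FAC (0.84 and 1.02). FAC alone, against control, was called in 221 of 11377 members. The share over all genes tested was 9.56%, but 1087 of those 1308 calls were among the 2305 genes that are not members, where entries with and without FAC could be filled differently. That comparison shares the control libraries with the response without FAC.

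The inhibitors of differentiation, targets of BMP and SMAD signalling, included genes whose level FAC alone lowered. Of 10 listed ID and SMAD genes, 3 rose and 6 fell without FAC, and 4 rose and 1 fell with it. ID3 stood at 58.0, 63.5 and 59.6 FPKM in control, 17.3, 14.3 and 18.1 in BafA1, 4.70, 3.79 and 3.70 in FAC and 7.31, 6.31 and 6.45 in FAC+BafA1. BafA1 lowered it without FAC (-1.81 ± 0.09) and raised it from the low FAC level (0.61 ± 0.09, interaction 2.42 ± 0.13, limma adjusted p = 6.43e-08). ID2 fell from 113 ± 1.89 to 66.1 ± 2.95 FPKM without FAC and stood at 24.8 ± 1.63 and 23.1 ± 1.41 with it. ID4 went the other way without FAC, from 24.6 ± 0.781 to 41.5 ± 0.815 FPKM. With FAC it stood at 14.5 ± 1.07 and 15.9 ± 0.649 and was cancelled (interaction -0.61). ID1 was classed as reversed (-0.69 and 0.53), but its mean in FAC was under 1 FPKM. It met the minimum with FAC only through its level in FAC+BafA1, so a rise with FAC was a condition of its entry. SMAD7, an inhibitor of the pathway, was called only with FAC (-0.19 and 0.46), and the receptor effector SMAD1 was kept (0.56 and 0.45). The metallothioneins MT1X and MT2A, metal-binding proteins with near-identical paralogs, fell in both settings (-1.43 and -0.89, -1.32 and -0.47). They started lower in FAC than in control, MT1X at 11.5 against 17.1 FPKM and MT2A at 16.7 against 25.8. MT1X ended at 5.75 FPKM in BafA1 and 5.76 in FAC+BafA1, MT2A at 9.78 and 11.7. The zinc importer SLC39A10 was reversed (-0.70 and 0.18), from 24.3 FPKM in control and 36.1 in FAC.

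Kept responses of at least 1 log2 unit numbered 12. RNF145, a ubiquitin ligase of sterol sensing, stood at 23.8, 22.4 and 25.1 FPKM in control, 68.6, 73.4 and 75.9 in BafA1, 24.97, 23.8 and 27.0 in FAC and 80.3, 80.9 and 77.4 in FAC+BafA1. The responses were 1.57 ± 0.05 and 1.62 ± 0.05 log2 units, and the interval of their difference was -0.12 to 0.22. TFPI, an inhibitor of coagulation (1.56 and 1.25), CGA, a hormone subunit (1.70 and 1.17), and ISG15, a ubiquitin-like protein (1.58 and 1.15), were kept by the calls. Their interactions were -0.31, -0.53 and -0.43 and were called in 4, 6 and 2 of 21 alternatives, so their class depends on the setting. CLU, PRSS23 and EMP3, named after their values were seen, were the others among the higher ones that passed 1 log2 unit in both settings, with RNF145, JUND, TFPI, CGA and ISG15. Of the 12, 2 fell, RUNX1T1 (-1.16 and -0.85) and GSTM4 (-1.01 and -0.55). Over all sizes, 172 of 635 kept responses stayed so in 21 alternatives, against 2707 of 4374 cancelled ones.

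Responses seen only with FAC were small, and 0 of 181 reached 1 log2 unit. ANXA3, an annexin, stood at 1.46 ± 0.310 and 1.57 ± 0.356 FPKM without FAC and at 1.38 ± 0.347 and 3.45 ± 0.269 with FAC (interaction 0.85 ± 0.19, limma adjusted p = 0.0032). SPSB4 (-0.08 and 0.54), DENND2B (-0.12 and 0.55) and GPRC5C (0.29 and -0.48) were also named by rule, and GPRC5C left the class in 14 of 21 alternatives. The reversed responses of at least 1 log2 unit were SLC7A11, SLC6A9, ASNS, ID3 and ARRDC4, an arrestin-like regulator of glucose uptake (1.27 and -0.25).

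The interaction was called in 55.8% of 43 DNA replication genes, 55.2% of 29 mitosis genes and 59.1% of 22 p53 targets, against 54.4% of all members. The sign for replication genes depended on scaling, with 15 positive and 9 negative as deposited and 9 and 15 with median-of-ratios scaling. Without FAC 14 replication genes rose and 16 fell as deposited, against 19 and 11 with median-of-ratios scaling. CDC6, a loader of the replicative helicase, was reversed (0.91 and -0.13), with the fall lost in 4 of 21 alternatives. UHRF1 (-0.67 and 0.02) and GINS2 (-0.57 and 0.05) of that list fell without FAC and were cancelled. The p53 targets went both ways, 10 rising and 9 falling of 22 without FAC (median 0.11). CDKN1A, the inhibitor p21, retained 1.13 of 2.26 and PMAIP1 (NOXA) 0.46 of 1.66 log2 units. BAX fell and was cancelled (-0.77 and -0.11), but was reduced in 2 of 21 alternatives. Ribosomal proteins fell in 19 of 29 without FAC and 0 with FAC, and 13 were cancelled. With median-of-ratios scaling 11 fell and 2 rose, and the interaction was positive in 4 and negative in 2 instead of 13 and 0. The HOX genes, which set position along the body axis, fell in 26 of 31 without FAC (median -0.77) and 12 with FAC (median -0.18), and 77.4% had a called interaction. HOXA10 stood at 49.0 ± 0.926 and 19.6 ± 1.01 FPKM without FAC and at 45.3 ± 1.18 and 36.1 ± 0.978 with FAC.

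**Figure D4:**
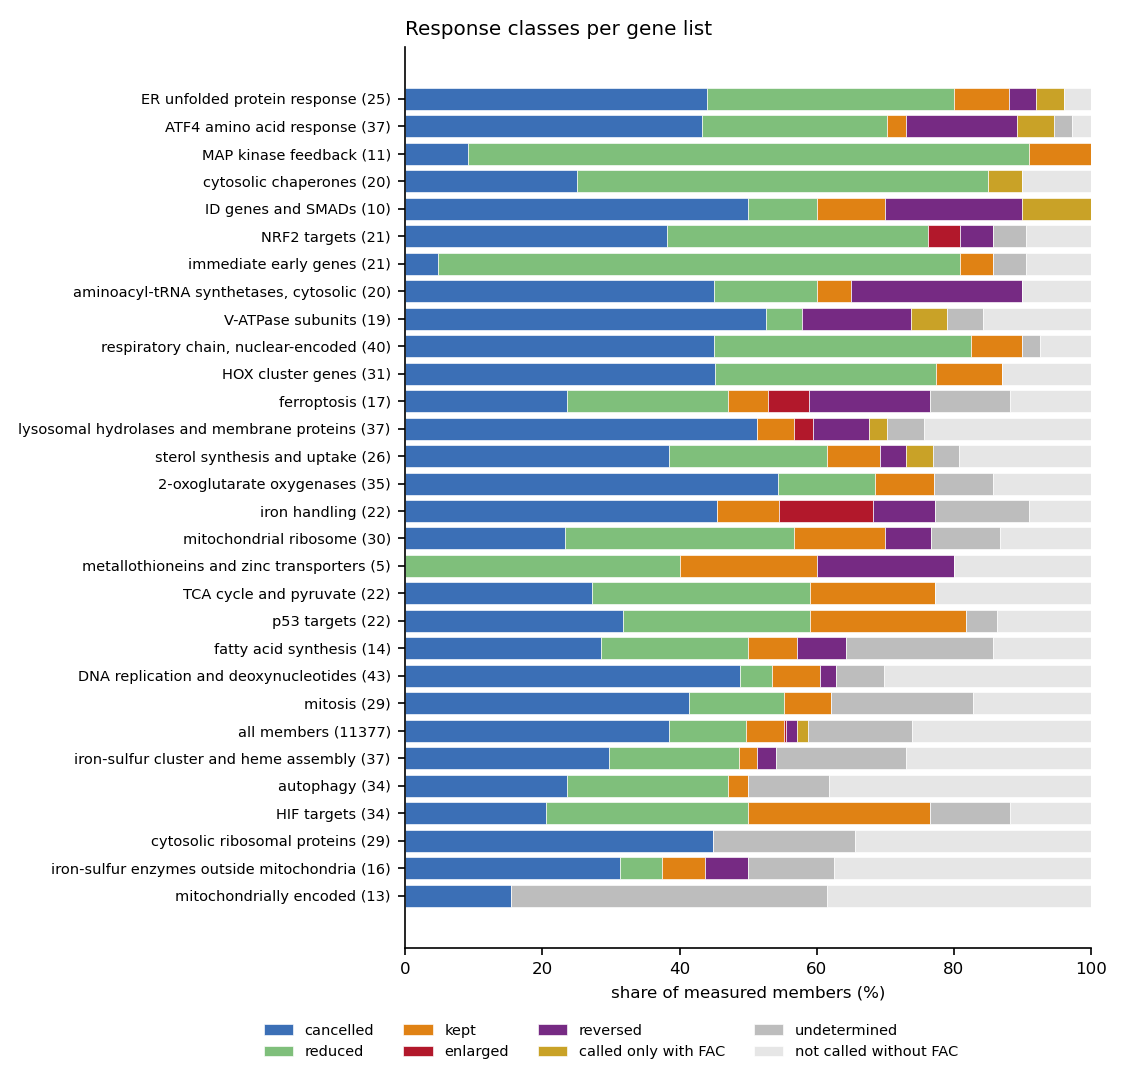
Share of the measured members of each gene list in each response class, in percent, with the number of members in brackets, ordered by the share with a called interaction. The ER, ATF4 and MAP kinase lists lie at the top, the row of all 11377 members lies below the mitosis list, and the mitochondrially encoded genes (15.4% called) lie at the bottom.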

How the data were processed

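RNA of HEK293T cells was sequenced in 4 groups of 3 libraries, for which the labels name a stranded mRNA kit. The authors deposited FPKM for 56340 gene entries. STAR, RSEM and GRCh38 are named in the submitters' processing notes, without versions. The annotation release and the use of strand in counting are not stated there. From the entries 3 repeats were dropped, and 56104 of 56337 IDs matched GENCODE 44, which gave gene types and positions. Members were protein-coding genes averaging 1 FPKM or more on each FAC side. Values were taken as log2(FPKM + 1) and fitted with limma 3.58.1 in R 4.3.3 (group means of all 12 libraries, intensity trend). P-values were adjusted over 13682 genes averaging 1 FPKM or more, and an adjusted p under 0.05 was a call. The fit was tested on simulated data. No count model was used.

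Members, lists and tests were chosen with earlier results of these data known, so list counts are descriptions. Named genes were, by rule, the 5 largest per class, up to 3 per list with the smallest interaction p, and 12 fixed genes, 113 in all. Others named from the lists were picked after their values were seen. The alternatives tried were other scalings, pseudocounts, filters, thresholds, a replicate block and leaving out each library. Some genes are not reported here.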

Additional observations from a re-analysis of the deposited data

Results flagged for a closer look

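The BafA1 response with FAC differed from that without, by limma's interaction term (adjusted p under 0.05), in 6192 of 11377 members and in 105 of the 113 named genes. The interactions below are in log2(FPKM + 1), the response with FAC minus that without, each from 3 libraries a group, with no explanation weighed. Genes called one by one by this test include those chosen for their size, so the values describe and do not add support.

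Among the cancelled responses, the interaction was negative for TRIB3 (-2.68), CHAC1 (-2.66), SESN2 (-2.20), RAB39B (-2.08), TVP23C (-1.96), HSPA5 (-1.72), MYC (-1.13), CARS1 (-1.08), SARS1 (-1.01), CALCOCO2 (-0.84), KDM6A (-0.78), KDM4A (-0.73), ID4 (-0.61), OGFOD1 (-0.51), MT-CO2 (-0.50), TTK (-0.41), TPX2 (-0.32), MT-ND3 (-0.32) and ABCE1 (-0.24). Among the cancelled responses, the interaction was positive for PPT1 (0.92), HOXB6 (0.88), MRPL23 (0.85), STEAP3 (0.82), ATP6V0E2 (0.80), NFS1 (0.74), UHRF1 (0.68), ID2 (0.67), BAX (0.65), GINS2 (0.62), NDUFA1 (0.61), ATP6V0E1 (0.57), TXN (0.53), RPS15 (0.52), MDH2 (0.42), RPL35 (0.39), ACLY (0.34) and RPL6 (0.22). Among the reduced responses, the interaction was negative for EGR1 (-3.73), FOS (-3.59), ARC (-2.94), CTH (-2.74), ATF3 (-2.53), C11orf96 (-2.47), HERPUD1 (-2.44), DUSP1 (-1.47), XBP1 (-1.47), HK2 (-1.39), VEGFA (-1.37), SLC3A2 (-1.34), ETV5 (-1.29), PMAIP1 (-1.20), CDKN1A (-1.13), DUSP16 (-1.06), NDRG1 (-1.01), BHLHE40 (-0.99), SLC2A1 (-0.96), RB1CC1 (-0.74), PIK3C3 (-0.69), ALAS1 (-0.66) and PRC1 (-0.34). Among the reduced responses, the interaction was positive for HSPA1B (2.27), HSPA8 (1.42), ATP5MC1 (1.24), HSPE1 (1.05), HOXA10 (0.97), PRDX1 (0.97), NTHL1 (0.89), MT2A (0.85), HOXA9 (0.78), ATP5MC3 (0.75), SCD (0.66), SQLE (0.65), NSDHL (0.63), OGDH (0.61), MT1X (0.54), MRPS7 (0.49), MRPL24 (0.43) and PDHB (0.32). Among the reversed responses, the interaction was negative for SLC7A11 (-2.56), SLC6A9 (-2.20), ASNS (-1.81), ARRDC4 (-1.52), CDC6 (-1.04), NCOA4 (-0.75), IARS1 (-0.66), HSPA9 (-0.49) and PPAT (-0.43). Among the reversed responses, the interaction was positive for ID3 (2.42), SLC39A10 (0.88), ELOVL6 (0.77), CD63 (0.68), ATP6AP1 (0.43) and FTH1 (0.38). Among the enlarged responses, the interaction was negative for HMOX1 (-0.47). Among the enlarged responses, the interaction was positive for TFRC (2.32), LPCAT1 (0.80), EMILIN2 (0.77) and LAMA3 (0.37). Among the responses called only with FAC, the interaction was negative for GPRC5C (-0.77). Among the responses called only with FAC, the interaction was positive for ANXA3 (0.85), DENND2B (0.67), SMAD7 (0.65) and SPSB4 (0.63).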

How the results depend on the processing

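Over 23 alternatives none of the interactions of the 113 named genes reversed (0), and 6 genes crossed the threshold in at least 1 (CGA, FTL, ISG15, LAMA3, MT-CO2 and TFPI). Named genes that overlap another gene or average under 5 FPKM were not tested in the alternatives that remove such genes. Counts of members moved by over 1.5 times as follows, and the cause was not tested unless the setting itself removes genes. Large enlarged responses, and large ones called only with FAC, are counted here by the size of the response with FAC. By that measure 5 were enlarged in the main fit, against 2 by the response without FAC. With a pseudocount of 0.1, responses of at least 1 log2 unit were cancelled in 425, kept in 29 and called only with FAC in 1. With a minimum mean of 5 FPKM the large cancelled responses were 140. Without a filter on low values 120 responses were reversed and 103 called only with FAC. The large reversed responses were 10 with quantile normalization and 8 after rescaling to an equal FPKM sum, where 1 large response was called only with FAC. At an adjusted p under 0.01, 1246 members were called with FAC, and 650 were reduced, 363 kept, 14 enlarged, 67 reversed (3 of them large) and 59 called only with FAC. Without genes that overlap another gene, where fewer genes were tested, the interaction was called in 1855 members (1170 positive, 685 negative), the response without FAC in 2363 and with FAC in 809. There, 1249 were cancelled, 424 reduced, 199 kept, 9 enlarged, 70 reversed and 66 called only with FAC, and of the large ones 60 were cancelled, 110 reduced, 4 kept, 2 enlarged and 2 reversed. With a minimum change of 0.58 log2 in place of 1, which admits more genes, these were 1456, 878, 72, 11 and 21, with 5 called only with FAC.

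Leaving out 1 library at a time gave 5774 to 5978 interaction calls (3432 to 3595 positive, 2338 to 2446 negative), 7765 to 8262 calls without FAC and 1721 to 2472 with FAC. It gave 4146 to 4576 cancelled, 886 to 1255 reduced, 483 to 655 kept, 16 to 25 enlarged, 116 to 189 reversed and 107 to 171 called only with FAC. Of the large ones it gave 214 to 258 cancelled, 284 to 347 reduced, 9 to 13 kept and 4 to 7 reversed. Counted by the response with FAC, 5 to 6 were enlarged, against 5 with all libraries. Such responses called only with FAC numbered 0 to 1 (1 without FAC replicate 1). The lowest counts of reversed responses (116) and of those called only with FAC (107) came without FAC+BafA1 replicate 2 and without replicate 1 of that group. The replicate numbers did not pair the libraries: deviations of same-numbered libraries correlated at -0.074 to 0.138, and 5 of 12 libraries correlated best with their own number. With the replicate block the interaction was called in 6054 members (253 lost, 115 gained), and 4 named genes changed call (CGA, ISG15, LAMA3 and MT-CO2). An alternative chosen after seeing the data counted only immediate early and MAP kinase feedback genes with a starting level of at least 1 FPKM. It left out 5 of 21 and 1 of 11 genes, too few to move any of the 6 counts by 1.5 times, so it is no check of them. The medians with FAC went from 0.67 to 0.35 and from 0.88 to 0.71. FPKM without counts gives no exact depth, so no interval from counting is given.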
